A study of Bos taurus with 9 samples.

Results

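Genes that carry, take up, make, store or release fatty acids, 10 in number, were followed over 9 bovine expression arrays: FABP3, FABP4, FABP5, LPL, CD36, OLR1, SCD, PLIN2, LIPE and PPARG. The genes were chosen with earlier results of these data known. Their probe sets were taken by symbol, as every probe set whose only annotated gene is one of these names. All 10 genes had a probe set, 15 probe sets in all, out of 9155 genes on the array with a single symbol. The arrays compared 3 groups of 3 samples each: articular chondrocytes embedded in agarose right after isolation and kept for 28 days, marrow mesenchymal stem cells (MSCs) kept in agarose for the same 28 days, and MSCs harvested directly after embedding (day 0). Both day 28 groups were cultured in chemically defined medium with 10 ng/mL TGF-beta3, a growth factor that induces cartilage formation, and the day 0 group was not. Each group held 1 sample from each of 3 calves aged 3 to 6 months, so that chondrocytes and MSCs of the same number came from the same animal. All 7 cartilage matrix genes measured, among them those of aggrecan and of the main cartilage collagen, were higher in both day 28 groups than at day 0. Of 8 marrow stromal markers, 2 lay below the 25th percentile of signal in chondrocytes, 2 in day 28 MSCs and 1 in day 0 MSCs. Of these 8, 0 were higher and 3 lower in day 28 than in day 0 MSCs. In chondrocytes, 1 was higher and 0 were lower than in day 28 MSCs, and 0 were higher and 2 lower than in day 0 MSCs.

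Fatty acids do not dissolve in the cytoplasm and are carried there by small fatty acid binding proteins, of which FABP3 is the heart and muscle form, FABP4 the fat cell and macrophage form and FABP5 the epidermal form. Lipoprotein lipase (LPL) frees fatty acids from circulating lipoproteins, CD36 takes them and oxidised lipoproteins up at the cell surface, stearoyl-CoA desaturase (SCD) puts a double bond into newly made ones, perilipin 2 (PLIN2) coats the droplets in which they are stored as triglyceride, and hormone-sensitive lipase (LIPE) takes part in their release. PPARG is the nuclear receptor that drives fat cell differentiation, the alternative fate of marrow stromal cells to cartilage and bone, and FABP4, LPL and CD36 are among its known target genes in fat cells.

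Values are the deposited log2 signals of each array, and a gene is represented by its probe set of highest mean signal unless another is named. A difference of 1 on this scale is a 2-fold difference in signal. Differences are given with the standard error of the limma fit (n = 3 arrays per group throughout) and a p adjusted by Benjamini-Hochberg over all 24016 probe sets, and a gene was called at an adjusted p under 0.05. Differences that were called are described as higher, lower, risen or fallen. The 3 comparisons share arrays, so that they are not independent of each other. Time in culture and TGF-beta3 cannot be told apart in the differences from day 0. No chondrocytes were measured at day 0, so that chondrocytes differ from day 0 MSCs in cell type as well. In bulk samples, fewer cells that express a gene and less RNA per cell cannot be told apart.

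**Figure D1:**
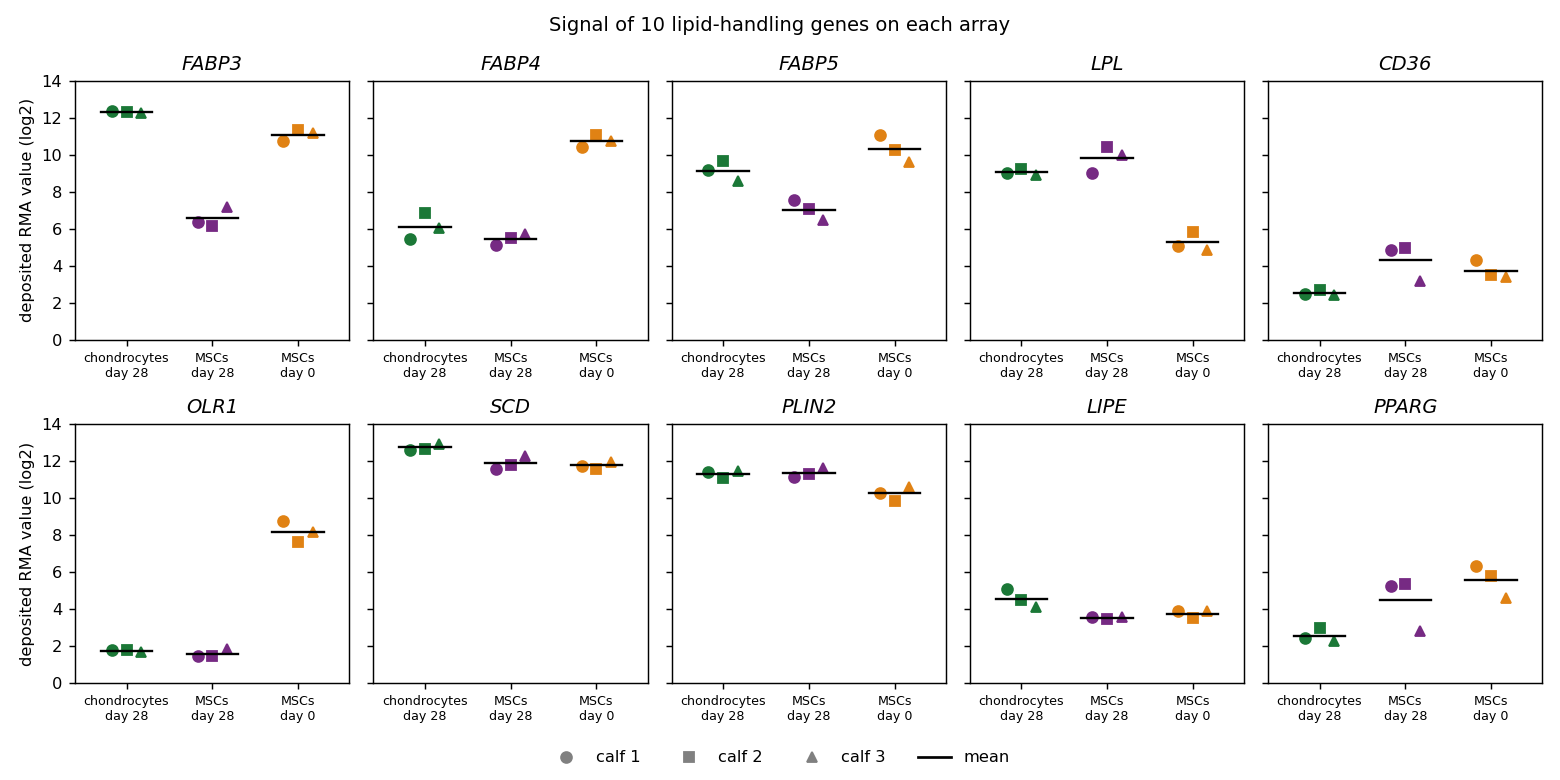
Deposited log2 signal (y axis) of the 10 genes on each of the 9 arrays, by group (x axis); symbols mark the calf and the black line is the group mean. FABP3 sits above 12 in chondrocytes and at 6.17 to 7.17 in day 28 MSCs, FABP4 and OLR1 are high in day 0 MSCs alone, and LPL is low in day 0 MSCs alone.

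Of the 10 genes, 6 were called between day 28 and day 0 MSCs, 2 of them higher (LPL and PLIN2) and 4 lower (OLR1, FABP4, FABP3 and FABP5), where 34.5% of all genes were called, 13.5% higher and 21.0% lower. Between chondrocytes and day 28 MSCs, 5 genes were called, 4 of them higher in chondrocytes (FABP3, FABP5, LIPE and SCD) and 1 lower (CD36), against 13.2% of all genes, 8.35% higher and 4.81% lower. Between chondrocytes and day 0 MSCs, 8 genes were called, 5 of them higher (LPL, FABP3, PLIN2, SCD and LIPE) and 3 lower (OLR1, FABP4 and PPARG), against 36.0% of all genes, 15.1% higher and 20.9% lower. The median difference over the 10 genes was -0.66 between day 28 and day 0 MSCs (-0.11 over all genes), 0.41 between chondrocytes and day 28 MSCs (-0.02) and -0.19 between chondrocytes and day 0 MSCs (-0.12). The median absolute difference between day 28 and day 0 MSCs was 2.20 over the 10 genes and 0.40 over all genes. Since the 10 genes were chosen with earlier results of these data known, their larger shares and differences cannot be extended to lipid genes in general. The shares of all genes called, 34.5%, 13.2% and 36.0%, are also the background for the counts of gene lists below. Over all probe sets, 30.2% were called between day 28 and day 0 MSCs, 10.3% between chondrocytes and day 28 MSCs (6.27% higher and 4.06% lower) and 31.0% between chondrocytes and day 0 MSCs. The groups did not overlap on any array for 6 of the 10 genes between day 28 and day 0 MSCs, where 46.9% of all genes did not overlap, for 5 genes between chondrocytes and day 28 MSCs (32.0%) and for 9 between chondrocytes and day 0 MSCs (53.9%).

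**Figure D2:**
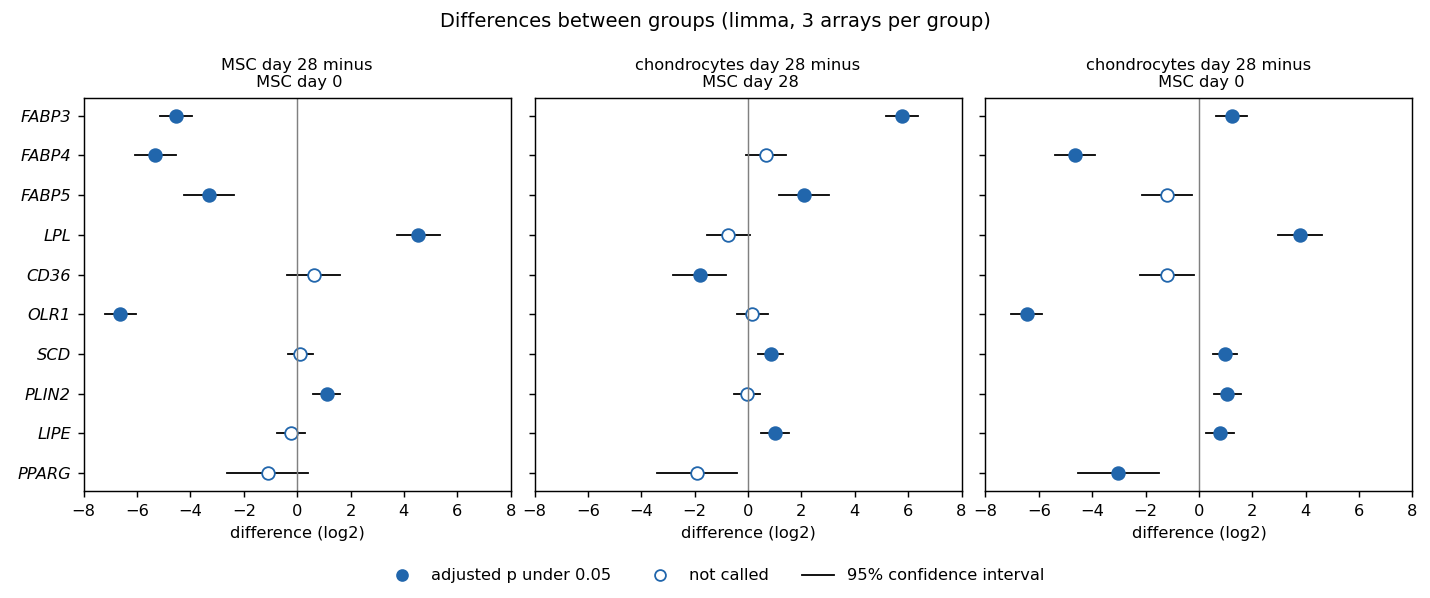
Differences on the log2 scale (x axis) for the 10 genes (rows) in the 3 comparisons (panels), with 95% confidence intervals as lines; filled points have an adjusted p under 0.05. OLR1, FABP4 and FABP3 lie furthest to the left in the first panel, at -6.62, -5.31 and -4.54, and FABP3 lies furthest to the right in the second, at 5.76.

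Some properties of the arrays moved with these comparisons. The 3′ minus 5′ signal of control transcripts, a sign of RNA integrity and amplification, ran from 1.59 to 1.96 in chondrocytes, 1.58 to 1.95 in day 28 MSCs and 1.14 to 1.59 in day 0 MSCs. MSC_day0 replicate 1 and 2 had the smallest values of the 9 arrays, while MSC_day0 replicate 3 (1.59) overlapped the day 28 groups. Its part in the differences from day 0 was not tested. The hybridisation control bioC read 8.35 and 8.43 on the arrays of calf 3 in the day 28 groups (chondrocytes_day28 replicate 3 and MSC_day28 replicate 3) and 11 to 11.44 on the other 7. Without those 2 arrays, 7, 6 and 9 of the 10 genes were called in the 3 comparisons, in the order above, where 26.3%, 7.89% and 27.6% of all probe sets were called. Scaling moved the balance of calls over all probe sets: between chondrocytes and day 28 MSCs 1506 were higher and 976 lower as deposited, 1344 and 1359 with arrays centred on their medians, and 1958 and 653 with arrays centred on ribosomal protein genes. Between chondrocytes and day 0 MSCs these splits were 3622 and 3823, 3110 and 5255, and 4369 and 2831. Among the 10 genes, centring on the median turned the split of 5 higher and 3 lower between chondrocytes and day 0 MSCs into 4 higher and 5 lower, with LIPE lost and FABP5 and CD36 gained. The splits of the 10 genes in the other comparisons were the same under each of these scalings.

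FABP3, the muscle-type carrier, separated the 3 groups from one another. Its signal was 12.35, 12.33 and 12.29 in chondrocytes, 6.34, 6.17 and 7.17 in day 28 MSCs and 10.75, 11.37 and 11.18 in day 0 MSCs. The chondrocyte arrays were the highest and lay within 0.06 of each other, the day 0 MSCs came next, and no group overlapped another. FABP3 fell by 4.54 ± 0.26 in day 28 MSCs relative to day 0 (23.3-fold lower signal, adjusted p = 7.54e-06), with a fall in each calf. In chondrocytes it was higher than in day 28 MSCs by 5.76 ± 0.26 (54.4-fold, adjusted p = 5.59e-06), the fifth largest rise among the 9155 genes, and by 5.12 to 6.17 within each calf. The difference between chondrocytes and day 0 MSCs was smaller, at 1.22 ± 0.26 (2.33-fold, adjusted p = 0.00683), and was positive in 3 of 3 calves. FABP3 is also a gene of muscle: of 12 muscle markers, 1 was higher and 1 lower in day 28 than in day 0 MSCs, and 1 higher and 2 lower in chondrocytes than in day 28 MSCs. Their summed linear signal ran from 5610 to 5840 in chondrocytes, 7310 to 9150 in day 28 MSCs and 3530 to 4130 in day 0 MSCs. CKM and MYH7 made up most of each sum. CKM averaged 10.83 in chondrocytes, 11.65 in day 28 MSCs and 11.35 in day 0 MSCs, and MYH7 11.86, 12.30 and 10.10. The other muscle markers averaged 6.18 or less in each group. The part of muscle-type expression in the values of FABP3 was not tested.

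FABP4, the carrier of fat cells and macrophages, was high in day 0 MSCs alone. It read 5.47, 6.83 and 6.02 in chondrocytes, 5.10, 5.51 and 5.73 in day 28 MSCs and 10.41, 11.09 and 10.75 in day 0 MSCs. The day 0 arrays stood apart, while the day 28 groups overlapped. The gene was lower in day 28 MSCs than at day 0 by 39.5-fold (-5.31 ± 0.33, adjusted p = 1.16e-05), the tenth largest fall of 9155 genes. It was lower in chondrocytes than in day 0 MSCs by 25-fold (-4.64 ± 0.33, adjusted p = 1.85e-05). Between chondrocytes and day 28 MSCs the difference was 0.66 ± 0.33 (adjusted p = 0.274), with a 95% confidence interval from -0.09 to 1.42. A second FABP4 probe set of lower signal gave the same picture, at 1.71 to 1.86 in chondrocytes, 1.62 to 2.21 in day 28 MSCs and 4.35 to 5.15 in day 0 MSCs. On it the differences from day 0 were -2.89 ± 0.23 in chondrocytes and -2.74 ± 0.23 in day 28 MSCs (adjusted p = 3.06e-05 and 4.72e-05). The sizes differ between the probe sets, and signals at the low end of the scale understate a fold change.

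FABP5, the epidermal-type carrier, also fell in MSCs during culture, but was at an intermediate level in chondrocytes. Its values were 9.18, 9.65 and 8.57 in chondrocytes, 7.53, 7.08 and 6.50 in day 28 MSCs and 11.10, 10.26 and 9.63 in day 0 MSCs. The day 28 MSCs were the lowest 3 arrays, and the ranges of chondrocytes and day 0 MSCs overlapped by 1 pair, 9.65 against 9.63. FABP5 fell by 3.3 ± 0.41 in day 28 MSCs relative to day 0 (9.83-fold, adjusted p = 0.000403). It was 4.29-fold higher in chondrocytes than in day 28 MSCs (2.10 ± 0.41, adjusted p = 0.013), a call lost without chondrocytes_day28 replicate 2 (1.84, adjusted p = 0.0554). A second probe set gave -3.12 ± 0.36 and 2.29 ± 0.36 for these comparisons (adjusted p = 0.000258 and 0.00427). Chondrocytes differed from day 0 MSCs by -1.20 ± 0.41 (adjusted p = 0.0551). This became a call under 10 of 24 alternatives, with adjusted p of 0.00598 to 0.046, among them the calf as a block (0.00598) and the fits without MSC_day28 replicate 3, chondrocytes_day28 replicate 2 or MSC_day0 replicate 3 (-1.20, -1.46 and -1.55).

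FABP3, FABP4 and FABP5 thus fell together in cultured MSCs and parted in chondrocytes, where FABP3 was above, FABP4 far below and FABP5 not called against day 0 MSCs. FABP4 and FABP5 are near neighbours in the RefSeq annotation of the cow genome, with PMP2 and FABP9 between them and FABP12 on the far side of FABP4, while FABP3 lies elsewhere, between SERINC2 and ZCCHC17. PMP2, FABP9 and FABP12 had no named probe set. Of 6 further carriers measured, FABP1 (liver), FABP2 (intestine), FABP6 (ileum), FABP7 (brain) and the retinoic acid carriers CRABP1 and CRABP2, 1 was called higher and 1 lower between day 28 and day 0 MSCs, 1 higher and 0 lower between chondrocytes and day 28 MSCs, and 1 higher and 0 lower between chondrocytes and day 0 MSCs (1 and 1 with the calf as a block). Without the 2 arrays of low bioC, 0 were called in limma between day 28 and day 0 MSCs, and 2 had an unadjusted p under 0.05. Mean signals of FABP1, FABP2, FABP6 and FABP7 lay between 1.51 and 2.30 in all groups, near the low end of the array's range of 0.989 to 13.959. CRABP2, which delivers retinoic acid to its nuclear receptor, read 11.32, 10.63 and 10.48 in chondrocytes, 7.48, 7.68 and 8.50 in day 28 MSCs and 7.19, 7.67 and 7.33 in day 0 MSCs. It was higher in chondrocytes than in day 28 MSCs by 2.92 ± 0.30 and than in day 0 MSCs by 3.42 ± 0.30 (adjusted p = 0.000472 and 6.38e-05).

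LPL, the secreted lipase, ran opposite to FABP4. It read 9.04, 9.24 and 8.92 in chondrocytes, 9.02, 10.42 and 9.97 in day 28 MSCs and 5.09, 5.85 and 4.87 in day 0 MSCs. Every day 28 array of either cell type was above every day 0 array. LPL rose by 4.54 ± 0.36 in day 28 MSCs relative to day 0 (23.2-fold, adjusted p = 3.63e-05), the rise of rank 39 among 9155 genes, and was higher in chondrocytes than in day 0 MSCs by 3.79 ± 0.36 (13.8-fold, adjusted p = 8.51e-05). Chondrocytes and day 28 MSCs differed by -0.74 ± 0.36 (adjusted p = 0.249, 95% confidence interval -1.55 to 0.06). The difference was 0.01 in calf 1, where MSC_day28 replicate 1 was the lowest of its group, and -1.19 and -1.06 in the other calves.

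Of 9 partners of LPL and lipoprotein receptors measured, 3 rose and 1 fell in day 28 MSCs relative to day 0, 1 was higher and 1 lower in chondrocytes than in day 28 MSCs, and 3 were higher and 1 lower in chondrocytes than in day 0 MSCs. Without the 2 arrays of low bioC, 2 rose and 0 fell in day 28 MSCs. Among them, an LPL inhibitor and a sorting receptor, were low at day 0 and higher in both day 28 groups. ANGPTL4, which inactivates LPL, read 8.95, 6.97 and 7.82 in chondrocytes, 6.63, 5.75 and 7.78 in day 28 MSCs and 4.18, 3.34 and 3.32 in day 0 MSCs. It rose by 3.11 ± 0.58 in day 28 MSCs and was higher by 4.30 ± 0.58 in chondrocytes, each relative to day 0 (adjusted p = 0.00348 and 0.000624), and chondrocytes and day 28 MSCs overlapped (1.19 ± 0.58, adjusted p = 0.258). SORL1, a sorting receptor that binds lipoproteins and LPL, was at 7.95 to 8.19 in chondrocytes, 8.27 to 8.60 in day 28 MSCs and 2.08 to 2.48 in day 0 MSCs. It was higher by 5.79 ± 0.15 in chondrocytes and by 6.16 ± 0.15 in day 28 MSCs than at day 0 (adjusted p = 8.22e-08 and 6.39e-08), and its other 3 probe sets were called higher too. APOE, the ligand of several lipoprotein receptors, was higher in chondrocytes than in day 28 MSCs by 1.49 ± 0.27 (adjusted p = 0.00786). VLDLR, a receptor for triglyceride-rich lipoproteins, was lower in chondrocytes than in day 28 MSCs on its brightest probe set (-1.0 ± 0.13, adjusted p = 0.00189), but its other 3 probe sets were not called there.

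CD36, the fatty acid and scavenger receptor, had low signal with the largest spread in day 28 MSCs. It read 2.48, 2.70 and 2.41 in chondrocytes, 4.85, 4.97 and 3.19 in day 28 MSCs and 4.30, 3.47 and 3.37 in day 0 MSCs. The chondrocyte arrays were the lowest 3, and MSC_day28 replicate 3, one of the arrays with low bioC, was the lowest of the MSC arrays. CD36 was lower in chondrocytes than in day 28 MSCs by 3.50-fold (-1.81 ± 0.44, adjusted p = 0.0322). That call was lost when MSC_day28 replicate 1 or 2 or any of the 3 chondrocyte arrays was left out, with differences of -1.89 to -1.49 and adjusted p of 0.0824 to 0.103. Chondrocytes and day 0 MSCs did not overlap but differed by -1.19 ± 0.44 (adjusted p = 0.0719). This became a call under 7 of 23 alternatives, with adjusted p of 0.00601 to 0.0482: with the calf as a block (0.0313), with array weights, with median centring, in a fit of those groups alone, and without MSC_day28 replicate 3, both arrays of low bioC or calf 3. Day 28 and day 0 MSCs differed by 0.62 ± 0.44 (adjusted p = 0.341), and by 1.19 without MSC_day28 replicate 3 (adjusted p = 0.0118) or without both arrays of low bioC (adjusted p = 0.0192).

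OLR1, the receptor for oxidised low-density lipoprotein of endothelium, smooth muscle and macrophages, had the largest differences of the 10 genes from day 0. Its signal was 1.79, 1.76 and 1.64 in chondrocytes, 1.47, 1.44 and 1.82 in day 28 MSCs and 8.78, 7.61 and 8.19 in day 0 MSCs. Both day 28 groups were near the bottom of the array's range, and the day 0 arrays were all above 7. The gene was 98.1-fold lower in day 28 MSCs (-6.62 ± 0.26, adjusted p = 9.29e-07) and 88.0-fold lower in chondrocytes (-6.46 ± 0.26, adjusted p = 9.06e-07) than in day 0 MSCs. Each was the second largest fall of 9155 genes in its comparison. Since the day 28 signals are at the bottom of the scale and the deposited values carry no detection calls, these folds depend on the floor of the array. Chondrocytes and day 28 MSCs differed by 0.16 ± 0.26 (adjusted p = 0.799).

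Of 9 other scavenger receptors measured, 1 rose and 3 fell in day 28 MSCs relative to day 0, 1 was higher and 0 were lower in chondrocytes than in day 28 MSCs, and 1 was higher and 4 were lower in chondrocytes than in day 0 MSCs. Without the 2 arrays of low bioC, 0 were called between chondrocytes and day 28 MSCs in limma, and 1 had an unadjusted p under 0.05. COLEC12, a collectin that takes up oxidised lipoprotein, read 4.94, 4.88 and 5.28 in chondrocytes, 2.38, 3.28 and 1.53 in day 28 MSCs and 6.66, 9.48 and 7.12 in day 0 MSCs. It was lower than at day 0 by 5.36 ± 0.68 in day 28 MSCs (-5.36, adjusted p = 0.000422) and by 2.72 ± 0.68 in chondrocytes (-2.72, adjusted p = 0.0144). CXCL16, a chemokine that also binds oxidised lipoprotein, was lower in chondrocytes than in day 0 MSCs (-1.44 ± 0.21, adjusted p = 0.00101). CD68, a lysosomal protein of macrophages, fell by 1.47 ± 0.31 in day 28 MSCs (adjusted p = 0.00582). Macrophages also express FABP4, CD36 and OLR1. Of 13 blood and macrophage markers, 5 were lower (TYROBP, AIF1, C1QA, CD68 and CTSS) and 1 was higher (CSF1R) in day 28 than in day 0 MSCs. Their summed linear signal ran from 500 to 605 in chondrocytes, 405 to 462 in day 28 MSCs and 588 to 911 in day 0 MSCs. The pan-leukocyte gene PTPRC averaged 2.25 in chondrocytes, 2.15 in day 28 MSCs and 2.49 in day 0 MSCs, and was not called in any comparison. Of the same 13, 2 were higher (CD14 and CSF1R) and the same 5 were lower in chondrocytes than in day 0 MSCs. CD14 averaged 7.29 in chondrocytes, 4.83 in day 28 MSCs and 4.62 in day 0 MSCs. CSF1R averaged 7.61 in chondrocytes, 6.01 in day 28 MSCs and 4.39 in day 0 MSCs. Both were highest in chondrocytes. C1QB averaged 3.75 in chondrocytes, 3.70 in day 28 MSCs and 3.64 in day 0 MSCs. AIF1, TYROBP, C1QA, CD68 and CTSS were highest at day 0, at 4.22, 4.85, 3.20, 5.42 and 9.07. The part of such cells in the falls of OLR1 and FABP4 was not tested. The calls of AIF1, TYROBP and C1QA between day 28 and day 0 MSCs were each lost without MSC_day0 replicate 1 or 2, with differences of -2.14 to -1.09, that of AIF1 also without MSC_day28 replicate 1 or 2, and that of C1QA also without any 1 of the 3 MSC_day28 arrays. Their calls between chondrocytes and day 0 MSCs were lost, in the same order, without any 1 of 5, 4 and 7 arrays (MSC_day0 replicate 1 and 2 and chondrocytes_day28 replicate 1 and 2 for each, chondrocytes_day28 replicate 3 for AIF1 and C1QA, and MSC_day28 replicate 1 and 2 for C1QA), and those of CD14 and CD68 without chondrocytes_day28 replicate 2 (2.52 and -1.06, adjusted p = 0.0542 and 0.0592).

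SCD, the desaturase, was bright on every array and highest in chondrocytes. It read 12.62, 12.66 and 12.95 in chondrocytes, 11.60, 11.78 and 12.30 in day 28 MSCs and 11.72, 11.60 and 11.98 in day 0 MSCs. All chondrocyte arrays were above all MSC arrays, and the 2 MSC groups overlapped. SCD was 1.96-fold higher in chondrocytes than in day 0 MSCs (0.97 ± 0.20, adjusted p = 0.00621) and 1.80-fold higher than in day 28 MSCs (0.85 ± 0.20, adjusted p = 0.0292). The second of these calls was lost when any 1 of the 3 chondrocyte arrays or MSC_day28 replicate 1 or 2 was left out, with differences of 0.70 to 0.91 and adjusted p of 0.061 to 0.0908. Day 28 and day 0 MSCs differed by 0.12 ± 0.20 (adjusted p = 0.704).

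**Figure D3:**
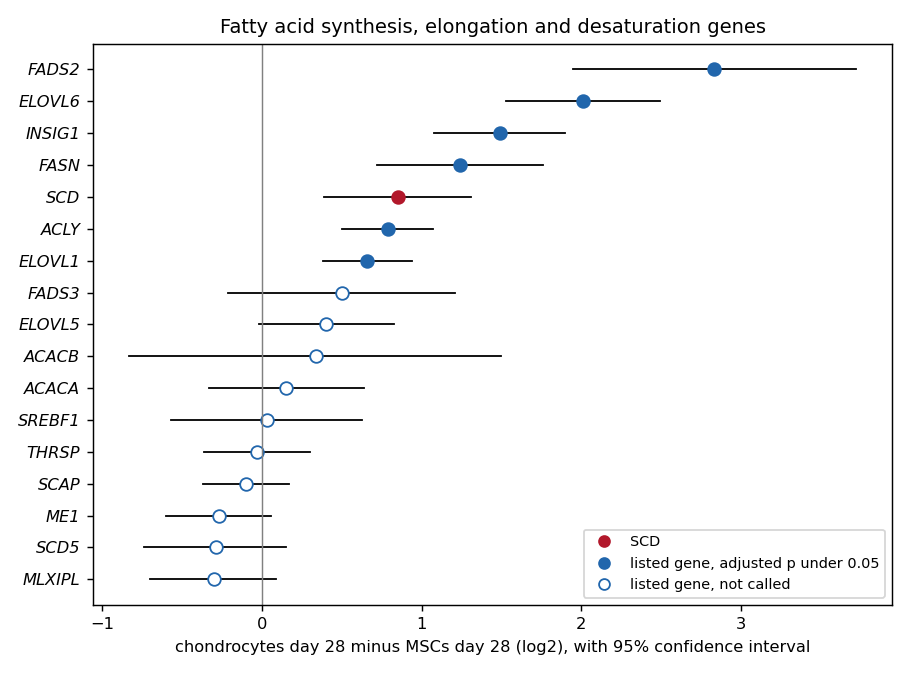
Difference between chondrocytes and day 28 MSCs (log2, x axis) for SCD and 16 other genes of fatty acid synthesis, elongation and desaturation (rows), with 95% confidence intervals; filled points have an adjusted p under 0.05. FADS2 leads at 2.83, 6 listed genes and SCD are filled on the right, and no filled point lies left of 0.

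Beside SCD, other genes of fatty acid synthesis, elongation and desaturation were higher in chondrocytes than in day 28 MSCs. Of 16 measured, 6 were higher and 0 lower in chondrocytes than in day 28 MSCs, with a median difference of 0.37, where 8.35% of all genes were higher. FADS2, the first desaturase of polyunsaturated fatty acid synthesis, read 10.51, 10.57 and 10.91 in chondrocytes, 6.98, 8.78 and 7.72 in day 28 MSCs and 9.96, 10.62 and 10.47 in day 0 MSCs. The day 28 MSCs were the only low group: FADS2 was higher in chondrocytes than in them by 2.83 ± 0.39 (adjusted p = 0.00226), and it fell by 2.52 ± 0.39 in day 28 relative to day 0 MSCs (adjusted p = 0.00132). ELOVL6, which lengthens palmitate to stearate, the substrate of SCD, was higher in chondrocytes than in day 28 MSCs by 2.01 ± 0.21 (adjusted p = 0.000528). Fatty acid synthase (FASN) read 10.79, 10.92 and 10.74 in chondrocytes, 9.09, 10.13 and 9.51 in day 28 MSCs and 9.29, 9.41 and 9.31 in day 0 MSCs. It was higher in chondrocytes by 1.24 ± 0.23 against day 28 MSCs and by 1.48 ± 0.23 against day 0 MSCs (adjusted p = 0.00979 and 0.00136). The other 3 called higher against day 28 MSCs, named after their values were seen, were INSIG1, which retains the sterol-regulated transcription factors of this pathway (1.49 ± 0.18), ACLY, which makes cytosolic acetyl-CoA (0.79 ± 0.13), and the elongase ELOVL1 (0.66 ± 0.13). INSIG1 averaged 10.83 in chondrocytes and 10.03 in day 0 MSCs, ACLY 11.30 and 10.88, and ELOVL1 8.28 and 8.28. Without the 2 arrays of low bioC, 4 of the 16 were called higher and 0 lower in chondrocytes than in day 28 MSCs.

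Between day 28 and day 0 MSCs, 2 of these 16 genes were higher and 5 lower, and between chondrocytes and day 0 MSCs 5 were higher and 1 lower. FADS3, a desaturase-like protein, fell by 1.82 ± 0.32 in day 28 relative to day 0 MSCs, while SCD5, the second stearoyl-CoA desaturase, rose by 1.14 ± 0.20 (adjusted p = 0.00224 and 0.00223). Of 13 genes of fatty acid uptake and activation, 0 were higher and 3 lower in day 28 than in day 0 MSCs, 1 was higher and 0 were lower in chondrocytes than in day 28 MSCs (2 and 0 with the calf as a block, and also without the 2 arrays of low bioC), and 1 was higher and 2 were lower in chondrocytes than in day 0 MSCs. ACSS2, which turns acetate into acetyl-CoA, read 7.70, 7.28 and 7.49 in chondrocytes, 3.94, 2.93 and 4.40 in day 28 MSCs and 7.25, 5.11 and 7.82 in day 0 MSCs. It was higher in chondrocytes than in day 28 MSCs by 3.74 ± 0.63 (adjusted p = 0.00602) and lower in day 28 than in day 0 MSCs (-2.97 ± 0.63, adjusted p = 0.0064). The long-chain acyl-CoA synthetase ACSL5 was lower than in day 0 MSCs in chondrocytes (-1.61 ± 0.29, adjusted p = 0.00264) and in day 28 MSCs (-2.61 ± 0.29, adjusted p = 0.000191).

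PLIN2, the droplet coat protein found in most cells that store lipid, read 11.41, 11.09 and 11.45 in chondrocytes, 11.13, 11.29 and 11.63 in day 28 MSCs and 10.29, 9.85 and 10.60 in day 0 MSCs. All day 28 arrays were above all day 0 arrays, and the day 28 groups overlapped. PLIN2 rose by 1.11 ± 0.22 in day 28 MSCs relative to day 0 (2.15-fold, adjusted p = 0.00439) and was higher in chondrocytes than in day 0 MSCs by 1.07 ± 0.22 (2.10-fold, adjusted p = 0.00544). Chondrocytes and day 28 MSCs differed by -0.04 ± 0.22 (adjusted p = 0.949), with a 95% confidence interval of -0.53 to 0.45.

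LIPE, the hormone-sensitive lipase, had 4 probe sets, and its call rested on one of them. The brightest read 5.07, 4.46 and 4.11 in chondrocytes, 3.57, 3.46 and 3.55 in day 28 MSCs and 3.86, 3.50 and 3.86 in day 0 MSCs. On it LIPE was higher in chondrocytes by 1.02 ± 0.23 against day 28 MSCs and by 0.80 ± 0.23 against day 0 MSCs (adjusted p = 0.0227 and 0.0261). The first call was lost without MSC_day28 replicate 1 or 2 or chondrocytes_day28 replicate 2 (0.99 to 1.06, adjusted p of 0.0561 to 0.0693), and the second without chondrocytes_day28 replicate 1 or 2 or MSC_day0 replicate 1 or 2 (0.54 to 0.86, adjusted p of 0.0517 to 0.0885). The other 3 probe sets had mean signals of 1.87 to 2.82 in all groups, were not called in any comparison and gave differences of -0.08 to 0.12 between chondrocytes and day 28 MSCs. Averaged over the 4 probe sets, chondrocytes differed from day 28 MSCs by 0.25 (adjusted p = 0.277) and from day 0 MSCs by 0.04 (adjusted p = 0.826).

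Of 11 other genes of the droplet coat and of lipolysis, 2 rose and 2 fell in day 28 MSCs relative to day 0, 2 were higher and 1 lower in chondrocytes than in day 28 MSCs, and 2 were higher and 1 lower in chondrocytes than in day 0 MSCs (2 and 3 with the calf as a block). G0S2, an inhibitor of the main triglyceride lipase PNPLA2, stood at 8.99, 8.97 and 8.43 in chondrocytes, 8.01, 7.49 and 7.71 in day 28 MSCs and 5.21, 4.92 and 5.50 in day 0 MSCs. It was higher than at day 0 by 3.59 ± 0.22 in chondrocytes and by 2.53 ± 0.22 in day 28 MSCs (adjusted p = 7.57e-06 and 6.24e-05). PNPLA2 itself was not called, at 0.33 ± 0.27 and 0.80 ± 0.27 (adjusted p = 0.398 and 0.0506), but the second of these became a call under 6 of 24 alternatives (adjusted p of 0.0357 to 0.049), among them cyclic loess, both filters on low signal, and the fits without chondrocytes_day28 replicate 1 or MSC_day0 replicate 3. CIDEB, a droplet protein of liver, read 7.12, 7.39 and 7.20 in chondrocytes, 4.15, 2.99 and 5.33 in day 28 MSCs and 3.20, 2.87 and 3.10 in day 0 MSCs. It was higher in chondrocytes than in day 28 MSCs by 3.08 ± 0.47 (adjusted p = 0.0035) and its second probe set by 2.89. The lysosomal acid lipase LIPA was lower than at day 0 in chondrocytes (-1.37 ± 0.23, adjusted p = 0.00206) and in day 28 MSCs (-1.92 ± 0.23, adjusted p = 0.000321).

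Of 10 genes of triglyceride synthesis, 3 rose and 2 fell in day 28 MSCs relative to day 0, 0 were higher and 1 was lower in chondrocytes than in day 28 MSCs, and 4 were higher and 2 lower in chondrocytes than in day 0 MSCs. Without the 2 arrays of low bioC, 0 were called between chondrocytes and day 28 MSCs in limma, and 5 had an unadjusted p under 0.05. The acyltransferases of the first step GPAT3 and GPAM rose in day 28 MSCs (1.42 ± 0.30 and 1.13 ± 0.13), and those of the second step AGPAT3 and AGPAT2 fell (-1.61 ± 0.35 and -1.33 ± 0.19). A second GPAT3 probe set was not called (0.08, adjusted p = 0.746), and of the other AGPAT3 probe sets one fell (-1.04, adjusted p = 0.00765) and one was not called (-0.01, adjusted p = 0.98). DGAT1, which completes triglyceride, was higher in chondrocytes than in day 0 MSCs (1.49 ± 0.21, adjusted p = 0.000698). Of 19 genes of fatty acid oxidation, 4 rose and 4 fell in day 28 MSCs relative to day 0, 5 were higher and 3 lower in chondrocytes than in day 0 MSCs, and 0 were called in limma between chondrocytes and day 28 MSCs, where 5 had an unadjusted p under 0.05 and 1 was higher and 1 lower with the calf as a block. PDK4, the kinase that turns pyruvate oxidation down when fatty acids are burnt, was higher in chondrocytes than in day 0 MSCs on its brightest probe set (2.62 ± 0.43, adjusted p = 0.00168), and its other 2 probe sets were not called. ACADL, a long-chain acyl-CoA dehydrogenase, rose by 1.01 ± 0.19 in day 28 MSCs (adjusted p = 0.00313), and its second probe set was not called.

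PPARG, the fat cell regulator, was lowest in chondrocytes and varied between calves in the MSC groups. It read 2.41, 2.95 and 2.28 in chondrocytes, 5.24, 5.35 and 2.78 in day 28 MSCs and 6.31, 5.78 and 4.61 in day 0 MSCs. Chondrocytes did not overlap day 0 MSCs. MSC_day28 replicate 3, at 2.78, lay within the chondrocyte range, while the other day 28 MSC arrays were above 5. The gene was lower in chondrocytes than in day 0 MSCs by 8.13-fold (-3.02 ± 0.67, adjusted p = 0.00816). It was not called between chondrocytes and day 28 MSCs (-1.91 ± 0.67, adjusted p = 0.111), but was with the calf as a block (adjusted p = 0.0224), without MSC_day28 replicate 3 (-2.75, adjusted p = 0.00594), without both arrays of low bioC (-2.62, adjusted p = 0.0232) and without calf 3 (-2.62, adjusted p = 0.00571). Day 28 and day 0 MSCs differed by -1.11 ± 0.67 (adjusted p = 0.255), with a lower value at day 28 in 3 of 3 calves.

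Of 10 other adipogenic regulators, 2 rose and 1 fell in day 28 MSCs relative to day 0, 0 were higher and 2 lower in chondrocytes than in day 28 MSCs, and 1 was higher and 0 lower in chondrocytes than in day 0 MSCs. Over all genes, 34.5%, 13.2% and 36.0% were called in these comparisons, in that order. With the calf as a block, 1 was higher and 4 lower in chondrocytes than in day 28 MSCs, and 1 higher and 1 lower than in day 0 MSCs. Without the 2 arrays of low bioC, 4 rose and 1 fell in day 28 MSCs relative to day 0. ZBTB16, a zinc finger regulator of stromal cell fate, read 4.45, 4.68 and 4.63 in chondrocytes, 5.56, 5.92 and 5.14 in day 28 MSCs and 2.45, 2.37 and 2.21 in day 0 MSCs. It was higher than at day 0 by 2.25 ± 0.19 in chondrocytes and by 3.20 ± 0.19 in day 28 MSCs (adjusted p = 5.29e-05 and 9.71e-06). KLF15, a factor that acts with PPARG in fat cells, rose by 1.5 ± 0.33 in day 28 MSCs (adjusted p = 0.00761), and KLF4 fell by 0.95 ± 0.19 (adjusted p = 0.00465). CEBPA, the partner of PPARG in fat cell differentiation, was not called in any comparison and averaged 2.89 ± 0.16 in chondrocytes, 3.09 ± 0.15 in day 28 MSCs and 3.12 ± 0.21 in day 0 MSCs (SD, n = 3 each).

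Several markers of fat cells were near the low end of the scale in all groups, while others were not. Adiponectin (ADIPOQ), made almost only by fat cells, read 1.51, 1.56 and 1.80 in chondrocytes, 1.56, 1.38 and 1.49 in day 28 MSCs and 1.77, 1.44 and 1.53 in day 0 MSCs, and was not called in any comparison. Of the 9 fat cell markers measured, 1 was higher and 0 lower in day 28 than in day 0 MSCs (the droplet protein CIDEC), 0 were higher and 1 lower in chondrocytes than in day 28 MSCs (CIDEC), and 1 was higher and 0 lower in chondrocytes than in day 0 MSCs (the glycerol channel AQP7, 2.19). The CIDEC call against day 0 was lost when MSC_day28 replicate 1 or 2 or any of the 3 MSC_day0 arrays was left out (0.58 to 0.77, adjusted p of 0.0577 to 0.0941). That between chondrocytes and day 28 MSCs was lost without MSC_day28 replicate 1 or 2 or chondrocytes_day28 replicate 1 or 3 (-0.93 to -0.77, adjusted p of 0.0662 to 0.0928). Their summed linear signal ran from 71.5 to 86.8 in chondrocytes, 59.7 to 85.0 in day 28 MSCs and 76.1 to 102 in day 0 MSCs, so that the groups overlapped. Of the 9, 5 lay below the 25th percentile of signal in chondrocytes, 5 in day 28 MSCs and 6 in day 0 MSCs. Leptin averaged 1.82 in chondrocytes, 1.87 in day 28 MSCs and 1.79 in day 0 MSCs. CIDEA averaged 4.35 in chondrocytes, 4.40 in day 28 MSCs and 5.18 in day 0 MSCs, and CFD 3.46, 3.44 and 4.35. Both were highest at day 0, as FABP4 was, and read below day 0 in each calf in both day 28 groups. Without the calf as a block, neither was called in any comparison. With that block, the droplet and lipolysis list that holds CIDEA had 4 genes lower in day 28 than in day 0 MSCs, against 2 without it. In chondrocytes 3 were lower than in day 0 MSCs, against 1. AQP7 averaged 4.15 in chondrocytes, 3.07 in day 28 MSCs and 1.96 in day 0 MSCs. The part of fat cells in the values of FABP4 was not tested.

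**Figure D4:**
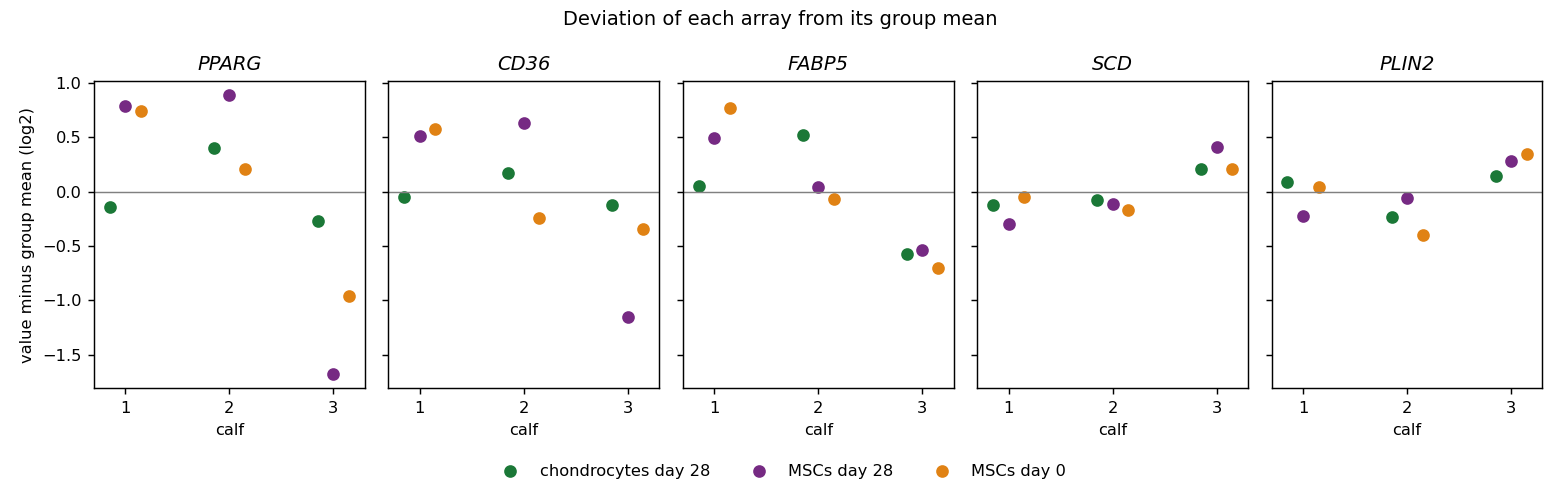
Value of each array minus the mean of its group (log2, y axis) for PPARG, CD36, FABP5, SCD and PLIN2, by calf (x axis) and group (colour). Calf 3 is the lowest of its group in all 3 groups for PPARG, CD36 and FABP5, down to -1.68 for PPARG in day 28 MSCs, and the highest in all 3 groups for SCD and PLIN2.

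Calf 3 differed from the others in 5 of the 10 genes, in the same direction in each group. It was the lowest of its group in all 3 groups for PPARG, CD36 and FABP5, and the highest in all 3 for SCD and PLIN2. Calf 1 held such a place for 1 gene (the lowest for FABP4) and calf 2 for 1 (the highest for LPL). Over all genes, calf 3 was at one end in all 3 groups for 17.7%, calf 1 for 8.18% and calf 2 for 11.3%. For PPARG, calf 3 lay 0.27 below its group mean in chondrocytes, 1.68 below in day 28 MSCs and 0.96 below in day 0 MSCs. The day 28 arrays of calf 3 were those with low bioC, while its day 0 array had a usual bioC, and the part of the calf and of the hybridisation in the day 28 values was not tested.

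The genes whose signal ran most like that of 4 of these genes over the 9 arrays were taken from about 6180 with a mean signal above the median, as a description, since the arrays fall into 3 groups and any gene that separates them in the same way has a high correlation. For FABP3 they were AURKB, a mitotic kinase, SHCBP1 and CCNB1, cyclin B1, with Pearson correlations of 0.994, 0.994 and 0.993. CCNB1 averaged 8.72 ± 0.41 in chondrocytes, 3.71 ± 0.51 in day 28 MSCs and 7.36 ± 0.23 in day 0 MSCs (SD, n = 3 each), the order of FABP3. For FABP4 they were PCCB, a subunit of propionyl-CoA carboxylase, PRSS35 and AP1S2 (0.996, 0.985 and 0.983), and PRSS35 averaged 6.25 ± 0.64 in chondrocytes, 5.95 ± 0.30 in day 28 MSCs and 10.67 ± 0.26 in day 0 MSCs. For OLR1 they were PAK1, SYTL2 and TRIM37 (0.991, 0.986 and 0.986). For LPL they were PDE6C, TRAF1 and SLC39A9 (0.980, 0.978 and 0.977), and PDE6C, known as a cone photoreceptor enzyme, averaged 7.25 ± 0.26 in chondrocytes, 8.01 ± 0.26 in day 28 MSCs and 2.59 ± 0.56 in day 0 MSCs.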

How the data were processed

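Each of the 9 samples was hybridised to its own 1-colour bovine array. Per the labels' protocols, cDNA was primed with poly(T), linearly amplified and labelled with biotin. The deposited values are log2 signals from RMA, as named in the submitters' processing notes; its version is not given in the sources used here. Because RMA forces the arrays into a shared distribution, global changes in RNA content are not visible. Of 24128 probe sets, 112 controls were left out; 13292 of the rest had 1 symbol, 86 several and 10638 none. Coordinates of the RefSeq table (ARS-UCD2.0) were not used, only names and gene order.

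A model of the 3 groups was fitted to all 24016 probe sets with limma 3.58.1 (R 4.3.3), after a check on simulated data. The labels number the calves: after subtraction of the group means, arrays of 1 calf correlated at 0.108 to 0.412 and arrays of different calves at -0.303 to 0.152. The calf as a block, other scalings, filters, variance models, subsets of arrays and choices of probe set were alternatives.

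The genes and lists were chosen with earlier results of these data known. Named list genes came from the 2 largest called rises and falls per list and comparison, and from fixed genes. Of the called genes, only some of those whose call held without any single array are given. Among those left out are PPARGC1A, AGPAT3, VLDLR and CIDEB between chondrocytes and day 0 MSCs. Of the fixed genes, PLIN1 and CPT1A had no named probe set. Markers and INSIG1, ACLY, ELOVL1 and AQP7 were named after their values were seen. Arrays are few, which limits the precision.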

Additional observations from a re-analysis of the deposited data

How the results depend on the processing

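Over the 10 genes, 24 alternatives and 3 comparisons, 708 differences were recomputed: 637 kept their direction and their side of the threshold, 40 kept the direction and lost the call, 23 gained one and 8 changed sign. The 8 were small uncalled values: SCD between day 28 and day 0 MSCs (-0.081 without MSC_day28 replicate 3 and without both arrays of low bioC; 0.271 at the other end when single arrays were left out), and PLIN2 between chondrocytes and day 28 MSCs (0.090 with arrays centred on ribosomal protein genes, 0.033 without the arrays of low bioC, 0.047 without calf 2, 0.033 without calf 3, and -0.147 to 0.101 without single arrays). The dim LIPE probe sets also changed sign between chondrocytes and day 28 MSCs, at 0.049 and 0.056 under ribosomal centring, -0.152 without calf 1, 0.015 without calf 2, and -0.164 to 0.010 and -0.055 to 0.278 without single arrays. PNPLA2 between chondrocytes and day 0 MSCs was -0.017 without calf 2. The cause of these changes was not tested.

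The number of the 10 genes called between chondrocytes and day 28 MSCs, 5, was 3 with probe sets under the median signal left out (which removes CD36, LIPE, PPARG and OLR1 from the test), 2 in a fit of those groups alone, 1 without calf 1, 1 without calf 2, and 1 to 6 without single arrays. Between chondrocytes and day 0 MSCs, 8 became 3 without calf 1 and 5 without calf 2. Between day 28 and day 0 MSCs it was 5 to 7 under all alternatives. Fits without a calf rest on 6 arrays; without calf 1 the calls between chondrocytes and day 0 MSCs of FABP3 (1.04, adjusted p = 0.105), PLIN2 (1.04, 0.082), LIPE, PPARG and SCD were lost, and those of the last 3 also without calf 2. Over all probe sets, calls were 4292 and 4574 without calves 1 and 2 between day 28 and day 0 MSCs, 3344 and 4963 between chondrocytes and day 0 MSCs, and 747, 766 and 1520 without calves 1, 2 and 3 between chondrocytes and day 28 MSCs, where single arrays left out gave 1356 to 2598.

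With the calf as a replicate block, PPARG between chondrocytes and day 28 MSCs (-1.91) became a call. So did FABP5 and CD36 between chondrocytes and day 0 MSCs (-1.20 and -1.19). With this block 6, 6 and 10 of the 10 genes were called, where calls over all probe sets came to 33.6%, 12.9% and 34.3% (8070, 3110 and 8247). No other call of the 10 genes changed. Counts of called genes also changed in several of the lists. Among them, the droplet and lipolysis genes called lower in day 28 than in day 0 MSCs went from 2 to 4. Centring on ribosomal protein genes shifted the median of all probe sets between chondrocytes and day 28 MSCs to 0.098, against -0.029 as deposited. Centring on the array median shifted it to -0.194 between chondrocytes and day 0 MSCs, against -0.075. The table has no detection calls, which limits what can be said of signals at the low end, such as OLR1 at day 28.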
